A study of Mus musculus with 6 samples.

Results

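Trimethylated lysine 4 of histone H3 (H3K4) marks the start of active genes, and CHD1, an ATP-dependent remodeller with paired chromodomains, binds that mark. The genes described here write and erase it: the methyltransferase genes Kmt2a, Kmt2b, Setd1a and Setd1b, the core subunit genes Wdr5, Ash2l, Rbbp5 and Dpy30, and the demethylase genes Kdm5a and Kdm5b. They were taken as all probes that the platform annotation assigns to these 10 genes under their current symbols. They had 23 of the 45281 probes on the array. Detection (p under 0.05) on 3 or more of the 6 arrays was required for testing, and 17 of these probes, covering all 10 genes, met it. In all, 16018 probes and 9507 named genes passed that filter.

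Mouse embryonic stem cells were electroporated with pHYPER vectors, either a control vector (3 samples) or one expressing a short hairpin RNA (shRNA) against Chd1 (3 samples). All 6 samples grew in 15% serum with leukemia inhibitory factor on mitomycin C-treated embryonic fibroblasts, and all were selected in puromycin for 48 h from 24 h after transfection. The strain or line of the cells and the insert of the control vector are not given in the sources used here. Total RNA of each sample was hybridised to 1 Illumina bead array. The labels do not say whether replicates were separate cultures, and p-values therefore reflect only how these samples vary, which may be technical. The comparison asks whether the machinery behind the mark that CHD1 reads is itself expressed differently after Chd1 shRNA.

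H3K4 methyltransferases of the MLL and SET1 type work in multiprotein complexes. The SET-domain enzyme is the catalytic subunit, and WDR5, RBBP5, ASH2L and DPY30 form a core that all of these enzymes share and need for full activity. KDM5 proteins are Jumonji-type demethylases that take methyl groups off the same lysine. In embryonic stem cells the mark lies at CpG-rich promoters of active genes and also at silent developmental genes.

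Of 4 Chd1 probes, 3 had lower signal on all Chd1 shRNA arrays than on any control array. Their levels were 23.5%, 26.1% and 44.7% of control, and none of the 4 passed an adjusted p of 0.05 by limma. The size depended on background correction: their log2 fold changes were -2.09, -1.94 and -1.16, and -1.20, -0.88 and -0.48 without it. The other probe, ILMN_2958382, was near background, detected on 4 arrays, and at 92.5% of control with overlapping groups. The Chd1 shRNA arrays detected 16285 to 17391 probes and the control arrays 15663 to 15925. Sample titles end in a shared number and a letter, F, E and D for control arrays 1, 2 and 3. For Chd1 shRNA arrays 1, 2 and 3 the letters are C, B and A. What the letter stands for is not stated, and an effect that follows it cannot be told apart from the condition. Quantile normalization set the arrays on one distribution, and log2 intensities below are on that scale. Fibroblast marker genes, which the feeder cells express, had positive differences for 16 of 17 tested genes, with a median log2 fold change of 0.74. Their summed normalized intensity ran from 6964 to 18773 on control arrays and from 12820 to 24248 on Chd1 shRNA arrays. The fibroblast genes Col1a2, Col3a1, Postn, Pdgfrb and Cald1 had probes that did not pass the detection filter. Of tested fibroblast genes, Lum was detected on 1 control and 3 Chd1 shRNA arrays, and Pdgfra on 1 and 2. Stem cell markers were negative for 10 of 12 genes, with a median of -0.39, and their summed intensity ran from 55648 to 64794 in control and from 49559 to 56412 in Chd1 shRNA arrays. Of 15 markers of cells leaving the stem cell state, 4 were tested, and all 4 had positive differences, with a median of 0.60. The brightest stem cell markers, Dppa5a and Esrrb, had log2 fold changes of -0.03 and -0.44. Those of the brightest fibroblast markers, Acta2 and Sparc, were 1.08 and 0.65, and of Gata6 and Nes, the brightest of the differentiation list, 0.64 and 0.66. Nes was detected on 2 control and 3 Chd1 shRNA arrays. Dppa5a read the same 15.18 on control arrays 1 and 3 and on Chd1 shRNA array 3. Quantile normalization gives equal ranks equal values, so a change of Dppa5a that keeps its rank is not seen. With means of 15.14 and 15.11 it also weighed most in the summed intensity of the stem cell markers. In such bulk samples, fewer cells of a type and less RNA per cell cannot be told apart.

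No probe of the 10 genes passed an adjusted p of 0.05, where 0% of all 16018 probes did, and the adjusted p-values ran from 0.384 to 0.963 (limma, Benjamini-Hochberg over all probes). The clearest differences were in Dpy30, whose 2 probes were both lower on every Chd1 shRNA array, at 68.7% and 65.7% of control. The low-signal probe of Kmt2a and the tested probe of Kmt2b were also lower on every Chd1 shRNA array. At an unadjusted p of 0.05 there were 3 of 17 probes, all lower, beside 10.4% of all probes in either direction and 5.68% in the lower direction. These 3 probes read 2 genes, Dpy30 and Kmt2a, and the smallest adjusted p over all 16018 probes was 0.0983. The groups did not overlap for 4 of 17 probes, all lower, beside 15.5% of all probes in either direction and 8.58% in the lower one. The count of 3 became 1 when control replicate 2, Chd1 shRNA replicate 2 or Chd1 shRNA replicate 3 was left out, 6 when control replicate 3 was, and 0 with median scaling. Over all probes the unadjusted count was 1664 with 6 arrays. Leaving out control replicate 3 made it 2682, and control replicate 2 made it 1298. Leaving out Chd1 shRNA replicate 2 made it 899, and Chd1 shRNA replicate 3 made it 1030. With median scaling it was 2248, of which 91.5% were higher in Chd1 shRNA arrays.

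With 1 probe per gene, the one with the highest mean over the 6 arrays, 9 of 10 genes had a negative difference, beside 49.3% of all genes. Of the 9, 5 lay between -0.1 and 0 on the log2 scale. The number was 4 of 10 with median scaling, where 23.7% of all genes were negative, 6 of 10 with 75th percentile scaling, and 7 to 8 with an array left out. The median log2 fold change was -0.08 over the 10 genes and 0.0057 over all 9507, and the range over the 10 was -0.54 to 0.32. The standard errors were typical of the platform, with a median of 0.22 over the 17 probes and 0.22 over all probes.

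**Figure D1:**
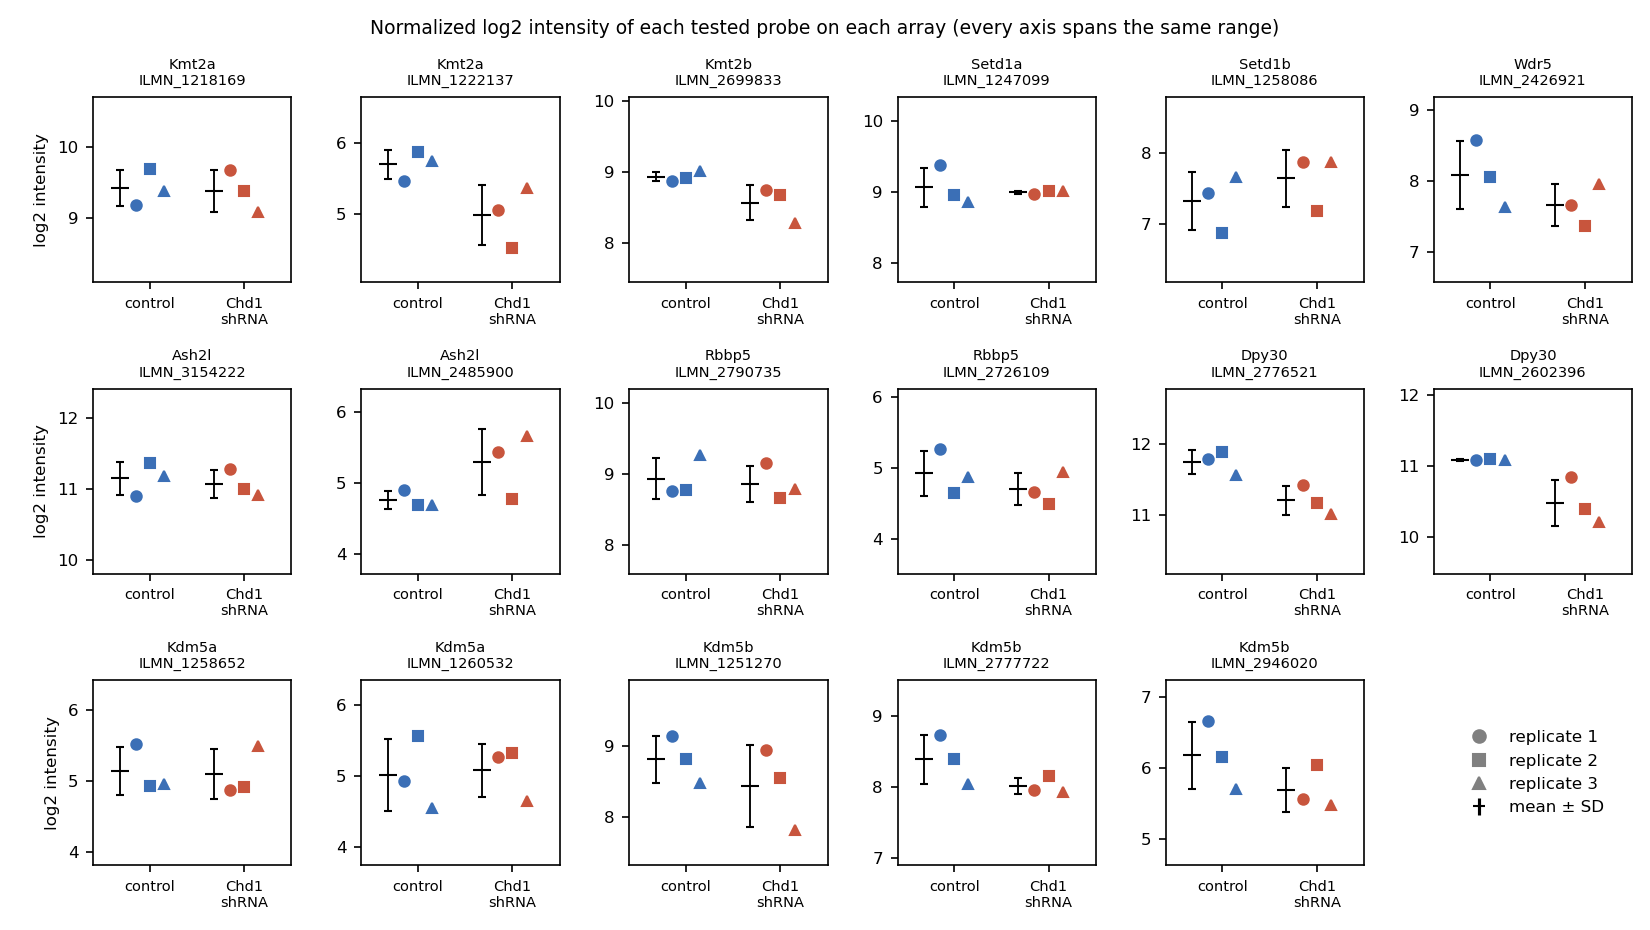
Normalized log2 intensity (y axis) of each of the 17 tested probes on the 3 control (blue) and 3 Chd1 shRNA (red) arrays, with the mean ± SD of each group in black, and every panel spans the same range. Both Dpy30 panels, the second Kmt2a panel and the Kmt2b panel show all red points below all blue points, and groups overlap in the other 13.

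Among the methyltransferase genes, Kmt2a encodes MLL1, the enzyme that keeps Hox genes active in development. Its probe ILMN_1218169 read 9.19, 9.70 and 9.38 on control arrays 1, 2 and 3 and 9.68, 9.39 and 9.09 on Chd1 shRNA arrays 1, 2 and 3. The groups covered nearly the same range, and the log2 fold change was -0.04 (SE 0.22, adjusted p = 0.963 by limma). The interval of that difference allowed levels from 69.0% to 138% of control. The other tested Kmt2a probe, ILMN_1222137, lay close to background, with detection on 3 control and 2 Chd1 shRNA arrays. It read 5.47, 5.88 and 5.75 on the control arrays and 5.06, 4.53 and 5.37 on the Chd1 shRNA arrays, so every Chd1 shRNA array was below every control array. Its log2 fold change was -0.71 (SE 0.24), at an unadjusted p of 0.0167 and an adjusted p of 0.390 by limma. Without background correction the value was -0.23, and with median scaling the groups overlapped. The annotation gives 1 reference mRNA for both Kmt2a probes.

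Kmt2b encodes MLL2, which methylates H3K4 at silent developmental promoters in mouse embryonic stem cells. Probe ILMN_2699833 read 8.88, 8.92 and 9.01 on the control arrays and 8.75, 8.67 and 8.29 on the Chd1 shRNA arrays. All 3 control values lay within a narrow band above the Chd1 shRNA values, and Chd1 shRNA replicate 3 was the lowest. The log2 fold change was -0.37 (SE 0.19, adjusted p = 0.518 by limma), a level of 77.4% of control with a 95% interval from 57.6% to 104%. On the intensities that the authors processed it was -0.31, at an unadjusted p of 0.0299 by limma. Of 11 settings with all 6 arrays, it passed an unadjusted p of 0.05 in 4 and the groups were apart in 9. Settings that changed only the filter, probe choice, variance model or array weights kept the same normalized values. Group overlap could not change there. Without background correction the result was nearly that of the authors' processed values, -0.31 at an unadjusted p of 0.0299 by limma. With median scaling the log2 fold change was -0.07, and the groups overlapped there and with 75th percentile scaling. With an array left out it ran from -0.46 to -0.23. The second Kmt2b probe, ILMN_1254977, was detected on 0 of 6 arrays and was not tested.

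Setd1a and Setd1b encode the catalytic subunits of the SET1 complexes, which place much of the H3K4 trimethylation at active promoters. Setd1a had 1 probe, ILMN_1247099, with values of 9.39, 8.97 and 8.87 on the control arrays and 8.97, 9.02 and 9.02 on the Chd1 shRNA arrays. The Chd1 shRNA values were almost identical and fell inside the control range. The log2 fold change was -0.07 (SE 0.19, adjusted p = 0.912 by limma), and the interval of levels was 70.3% to 129% of control. Setd1b was the gene of the 10 with a positive difference. Its probe ILMN_1258086 read 7.44, 6.87 and 7.65 on the control arrays and 7.87, 7.18 and 7.88 on the Chd1 shRNA arrays. Replicate 2 of both groups was the lowest and the groups overlapped, with a log2 fold change of 0.32 (SE 0.27, adjusted p = 0.675 by limma). Median scaling gave 0.63, and with an array left out the value ran from 0.097, lacking control replicate 2, to 0.56, lacking Chd1 shRNA replicate 2.

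Of the shared core, Dpy30 encodes the small subunit that joins ASH2L through its dimer and raises the methylation activity of the complexes. In mouse embryonic stem cells it is known to be needed for normal H3K4 methylation and for differentiation into lineages. Probe ILMN_2776521 read 11.79, 11.88 and 11.56 on control arrays 1, 2 and 3 and 11.43, 11.17 and 11.02 on Chd1 shRNA arrays 1, 2 and 3. Probe ILMN_2602396 read 11.08, 11.10 and 11.08 on the control arrays and 10.83, 10.39 and 10.21 on the Chd1 shRNA arrays. On both probes every control array was above every Chd1 shRNA array, and Chd1 shRNA replicate 1 was the closest to the controls. Group means were 11.74 ± 0.16 and 11.20 ± 0.21 on the first probe and 11.09 ± 0.012 and 10.48 ± 0.32 on the second (SD, n = 3 per group, control first). The log2 fold change was -0.54 (SE 0.19) and -0.61 (SE 0.20), with unadjusted p-values of 0.0191 and 0.0152 and adjusted p-values of 0.399 and 0.384 by limma. The 95% intervals of the level were 50.9% to 92.5% and 47.8% to 90.3% of control.

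The Dpy30 difference depended on how arrays were put on a common scale. Before normalization the first probe had intensities of 4479, 3194 and 2454 on the control arrays and 2910, 2282 and 2597 on the Chd1 shRNA arrays, so the groups overlapped there, and the second probe overlapped as well. In those unnormalized values 14.3% of the 16018 probes were higher on every Chd1 shRNA array and 0.350% were lower. With median scaling the log2 fold changes were -0.39 and -0.38 and the groups overlapped, while the median of all probes was 0.21. With 75th percentile scaling they were -0.60 and -0.59 and the groups were apart. Fitted on the intensities that the authors processed, they were -0.53 and -0.58. The difference was negative in all alternatives for both probes, between -0.66 and -0.39 for ILMN_2776521 and between -0.79 and -0.38 for ILMN_2602396. Alternatives that changed only the filter, probe choice or variance model could not change these values. The mean log2 intensity of the fibroblast markers was 7.50, 7.38 and 8.57 on control arrays 1, 2 and 3 and 7.96, 8.90 and 9.03 on Chd1 shRNA arrays 1, 2 and 3. Within the Chd1 shRNA arrays both Dpy30 probes were lower where that level was higher, and control replicate 3, the highest control in fibroblast markers, was the lowest control on ILMN_2776521. Control replicate 3 was also above Chd1 shRNA replicate 1 both in fibroblast markers and on both Dpy30 probes. What part the share of feeder cells has in the difference was not tested.

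The start of Dpy30 is shown here with that of Setd1a, a gene whose probe differed little, because CpG-rich starts are where H3K4 trimethylation lies. The windows are the 250 bases before the annotated transcript start (RefSeq, GRCm38.p6), in lower case with each CpG in capitals. The motif searched was CG, which reads the same on both strands. For Dpy30, which has 4 annotated starts, the one farthest downstream is shown, chr17:74316212-74316461 on the minus strand, and for Setd1a chr7:127777139-127777388 on the plus strand.
Dpy30: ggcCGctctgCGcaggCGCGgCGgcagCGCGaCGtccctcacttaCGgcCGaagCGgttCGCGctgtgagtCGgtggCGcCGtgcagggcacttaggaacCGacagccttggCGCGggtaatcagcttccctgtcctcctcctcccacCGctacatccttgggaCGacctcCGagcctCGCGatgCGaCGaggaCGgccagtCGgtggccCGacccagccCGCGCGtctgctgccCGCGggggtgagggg
Setd1a: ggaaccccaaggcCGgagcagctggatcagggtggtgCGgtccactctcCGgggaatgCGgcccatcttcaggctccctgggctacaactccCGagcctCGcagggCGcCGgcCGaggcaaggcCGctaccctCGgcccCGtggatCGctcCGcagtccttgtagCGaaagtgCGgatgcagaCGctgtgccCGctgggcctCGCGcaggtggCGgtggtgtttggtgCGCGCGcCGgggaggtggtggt
The Dpy30 window held 34 CpGs and the Setd1a window 25, where the median of all 32851 windows in the table was 6 and 92.1% held at least 1. At least as many CpGs as in the Dpy30 window were in 3.53% of all windows, and at least as many as in the Setd1a window in 10.7%. Of the 10 genes, 6 had a window in the table. The other Dpy30 windows held 28, 21 and 1, the Kmt2a window 29, Kdm5b 13, Wdr5 12 and Rbbp5 10. Whether the number of CpGs goes with the differences was not tested.

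Wdr5 encodes the WD40-repeat protein that docks the enzymes to the core. Probe ILMN_2426921 read 8.58, 8.05 and 7.62 on the control arrays and 7.67, 7.37 and 7.96 on the Chd1 shRNA arrays. Control replicate 3 lay among the Chd1 shRNA values, and the log2 fold change was -0.42 (SE 0.27, adjusted p = 0.591 by limma), or -0.65 without that array. Leaving out control replicate 1 instead made it -0.17, and leaving out the second Chd1 shRNA array made it -0.27.

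Ash2l encodes the SPRY-domain subunit that pairs with RBBP5. Its probe ILMN_3154222 read 10.90, 11.37 and 11.19 on the control arrays and 11.29, 11.01 and 10.92 on the Chd1 shRNA arrays, with overlapping groups and a log2 fold change of -0.08 (SE 0.20). Levels from 69.2% to 129% of control lay within its interval. A dim second probe, ILMN_2485900, was detected on 1 control and 3 Chd1 shRNA arrays and had the opposite sign. It read 4.91, 4.70 and 4.69 on the control arrays and 5.44, 4.77 and 5.67 on the Chd1 shRNA arrays, a log2 fold change of 0.53 (SE 0.24, adjusted p = 0.495 by limma), which was 0.16 without background correction. The third probe, ILMN_3075168, did not pass the filter.

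Rbbp5 encodes the partner of ASH2L, a WD40-repeat subunit. Probe ILMN_2790735 read 8.76, 8.77 and 9.26 on the control arrays and 9.15, 8.65 and 8.78 on the Chd1 shRNA arrays. The ranges coincided, and the log2 fold change was -0.07 (SE 0.22), with a level between 67.8% and 134% of control. The dim probe ILMN_2726109, detected on 3 arrays, had a log2 fold change of -0.23 (SE 0.22), and ILMN_2766338 was detected on none. In the core, groups were apart on both Dpy30 probes and overlapped on the Wdr5 probe and on the Ash2l and Rbbp5 probes detected on all arrays. Whether Dpy30 differs from the other core genes was not tested.

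**Figure D2:**
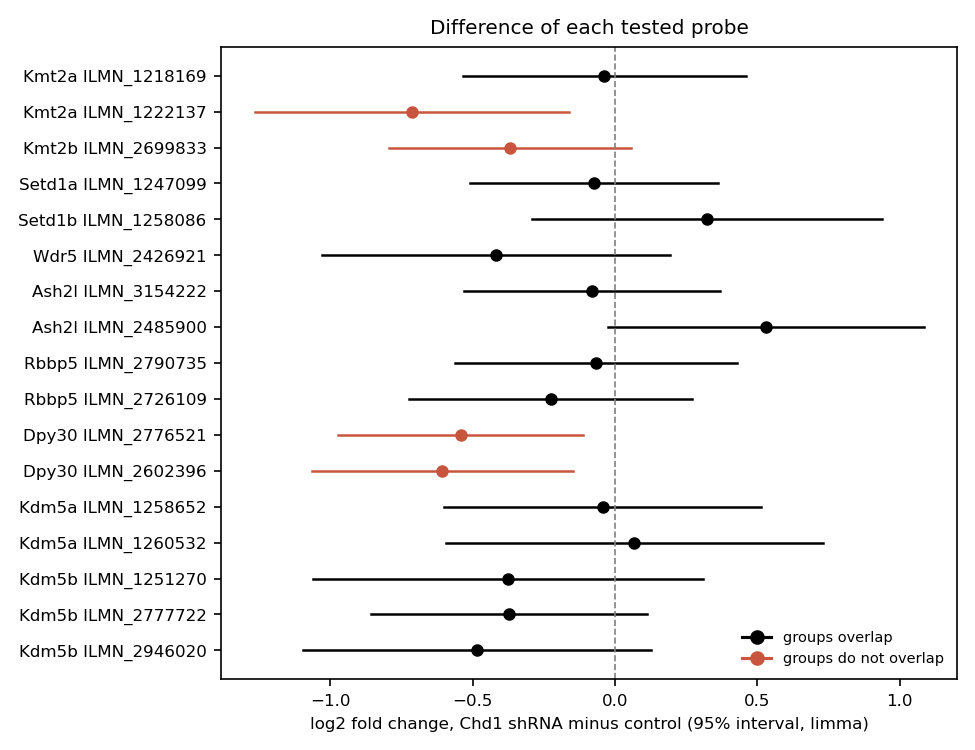
Log2 fold change (x axis, Chd1 shRNA minus control) of each tested probe, with its 95% interval from limma. Red marks the 4 probes whose groups did not overlap, the 2 of Dpy30 at -0.54 and -0.61, 1 of Kmt2a at -0.71 and 1 of Kmt2b at -0.37.

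Of the erasers, Kdm5b encodes a demethylase of di- and trimethylated H3K4 that is highly expressed in embryonic stem cells. It had 3 probes detected on all 6 arrays, and all had negative differences. Probe ILMN_1251270 read 9.14, 8.81 and 8.47 on the control arrays and 8.94, 8.55 and 7.81 on the Chd1 shRNA arrays. Probe ILMN_2777722 read 8.74, 8.40 and 8.04 on the control arrays and 7.97, 8.16 and 7.94 on the Chd1 shRNA arrays. On ILMN_2946020 the values were 6.66, 6.17 and 5.72 on the control arrays and 5.56, 6.05 and 5.48 on the Chd1 shRNA arrays. Control replicate 3 was the lowest control on all 3 probes and overlapped the Chd1 shRNA arrays on each. The log2 fold changes were -0.38 (SE 0.30), -0.37 (SE 0.21) and -0.49 (SE 0.27), with adjusted p-values from 0.548 to 0.659 by limma. With an array left out, the differences ran from -0.63 to -0.065 on ILMN_1251270, the weakest without Chd1 shRNA replicate 3. They ran from -0.55 to -0.20 on ILMN_2777722 and from -0.73 to -0.24 on ILMN_2946020, both largest in size without control replicate 3 and smallest without control replicate 1. The probes share their samples and are not independent measurements of a difference between conditions.

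Kdm5a encodes the related demethylase first found as a partner of the retinoblastoma protein. All of its 5 probes were near background. Probe ILMN_1258652 read 5.53, 4.94 and 4.96 on the control arrays and 4.87, 4.92 and 5.50 on the Chd1 shRNA arrays, and the groups overlapped. Its log2 fold change was -0.04 (SE 0.25). Probe ILMN_1260532 read 4.93, 5.56 and 4.55 on the control arrays and 5.26, 5.33 and 4.64 on the Chd1 shRNA arrays, with a log2 fold change of 0.07 (SE 0.29). The sign of both turned under some alternatives. The other probes, ILMN_1260558, ILMN_1235304 and ILMN_2457284, did not pass the detection filter. The 95% intervals allowed levels from 65.9% to 143% of control on the first probe and from 66.2% to 166% on the second, and a difference inside them could not be told from none.

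Of the 10 genes, 6 had more than 1 tested probe. With the brightest probe of the gene subtracted, the log2 fold change of the other Dpy30 probe differed by -0.06. For Kdm5b the second probe differed by 0.0041 and the third by -0.11. The dimmer probes of Kmt2a, Ash2l, Rbbp5 and Kdm5a differed by -0.68, 0.61, -0.16 and 0.11.

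Further genes of the pathway were summarised with 1 probe per gene. Of the list of other H3K4 methyltransferases and subunits particular to one complex, 14 of 21 genes were tested, 0 passed the adjusted threshold, 6 had positive and 8 negative differences, and the median log2 fold change was -0.10. At an unadjusted p of 0.05, which 11.1% of all genes reached, there was 1 gene, Ncoa6, a subunit of the MLL3 and MLL4 complexes. Ncoa6 read 5.83, 6.38 and 6.27 on the control arrays and 6.58, 6.60 and 6.64 on the Chd1 shRNA arrays, a log2 fold change of 0.45 (SE 0.20, adjusted p = 0.481 by limma). All Chd1 shRNA arrays were above all control arrays, and the second Ncoa6 probe, ILMN_2749937, gave 0.38 with overlapping groups. Over all genes, 16.4% had groups that did not overlap. Here they were Ncoa6 and Men1, which encodes menin, a subunit of the MLL1 and MLL2 complexes, at -0.40.

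Of other H3K4 demethylases and members of the LSD1-CoREST complex, 7 of 12 genes were tested, with 2 positive, 5 negative and a median log2 fold change of -0.20. None passed the adjusted threshold, and 1 passed the unadjusted one, which 11.1% of all genes reached. This was Kdm1b, which encodes LSD2, an amine-oxidase demethylase of mono- and dimethylated H3K4. It read 7.28, 7.54 and 6.84 on the control arrays and 6.28, 6.57 and 6.66 on the Chd1 shRNA arrays. The groups were apart, with a log2 fold change of -0.72 (SE 0.22, adjusted p = 0.360 by limma). The near-background Kdm1b probe ILMN_1237236 gave 0.0019. The groups were also apart, and lower in Chd1 shRNA, for Kdm1a, the gene of LSD1, at -0.36, and for the CoREST family gene Rcor2, at -0.48. The Rcor2 probe was near background, with means of 5.43 and 4.95 and detection on 3 control and 2 Chd1 shRNA arrays. Over all 9507 genes, groups were apart for 16.4%, and 892 genes were apart and lower in Chd1 shRNA.

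Of genes for proteins that bind methylated H3K4, 17 of 18 were tested, 7 positive and 10 negative, with a median log2 fold change of -0.08 and 0 past the adjusted threshold. At the unadjusted threshold there were 3, beside 11.1% of all genes. Dido1, a PHD-finger protein gene with a role in stem cell differentiation, read 7.85, 8.25 and 7.76 on the control arrays and 7.50, 6.95 and 6.92 on the Chd1 shRNA arrays, a log2 fold change of -0.83 (SE 0.23, adjusted p = 0.297 by limma). Bptf, the large subunit of the NURF remodeller, had a value of -0.44 (SE 0.19). Its probe was near background, with means of 5.27 and 4.83 and detection on 3 control and 2 Chd1 shRNA arrays. Pygo2, a WNT pathway cofactor, had one of 0.51 (SE 0.19). Other Dido1 probes gave both signs, among them 0.26 on ILMN_1257214 and -0.44 on ILMN_3087518, which were chosen after their values were seen. For these 3 genes the groups did not overlap, nor for Phf8, a PHD-finger demethylase gene, at 0.34, where 16.4% of all genes had groups apart. The Phf8 probe was near background, with means of 4.77 and 5.10 and detection on 2 control and 3 Chd1 shRNA arrays. Men1, Kdm1a, Rcor2 and Phf8 were chosen after their values were seen.

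Ubiquitination of histone H2B and the PAF1 complex act before H3K4 methylation. Of 11 such genes 9 were tested, 3 positive and 6 negative, with a median log2 fold change of -0.07 and 0 past the adjusted threshold. At the unadjusted threshold there were 0, beside 11.1% of all genes. Groups were apart for 0, beside 16.4% of all genes. The values farthest from 0 were 0.42 (SE 0.20) for Ube2b, a ubiquitin-conjugating enzyme gene, and -0.25 (SE 0.21) for Leo1, a PAF1 complex subunit gene.

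**Figure D3:**
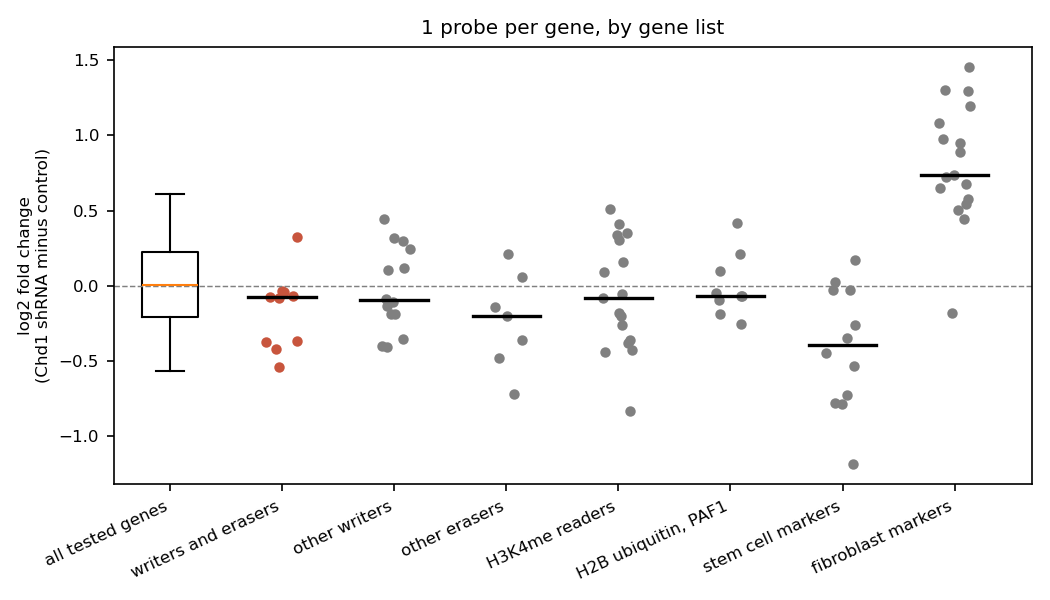
Log2 fold change (y axis, Chd1 shRNA minus control) of 1 probe per gene in each list, with the list's median as a black line. The box holds the middle of all 9507 genes with its median, and its whiskers reach the 5th and 95th percentiles. The 10 writers and erasers range from -0.54 to 0.32, and fibroblast markers have a median of 0.74.

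The level of the 10 genes on each array, as the median over genes of the log2 intensity minus the 6-array mean, was 0.22, 0.17 and 0.03 on control arrays 1, 2 and 3 and 0.08, -0.15 and -0.15 on Chd1 shRNA arrays 1, 2 and 3. Chd1 shRNA replicate 1 was above control replicate 3, so the groups overlapped. The stem cell markers read 0.46, 0.09 and 0.05 on the control arrays and 0.04, -0.33 and -0.33 on the Chd1 shRNA arrays. For the fibroblast markers the values were -0.73, -0.69 and 0.32 on the control arrays and -0.24, 0.57 and 0.84 on the Chd1 shRNA arrays. The 4 differentiation markers read -0.50, -0.40 and 0.07 on the control arrays and 0.11, 0.29 and 0.48 on the Chd1 shRNA arrays, without overlap. Of these, Gata3 and Cdx2 were close to background, and Gata3 passed the filter only through the Chd1 shRNA arrays. Differentiation and fibroblast markers were both highest among controls on replicate 3, and both rose from Chd1 shRNA array 1 to 3. What part feeder cells have in the differentiation markers was not tested. On the 2 arrays where the 10 genes were lowest, Chd1 shRNA replicates 2 and 3, stem cell markers were also lowest and fibroblast markers highest, and their part in the values of the 10 genes was not tested.

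**Figure D4:**
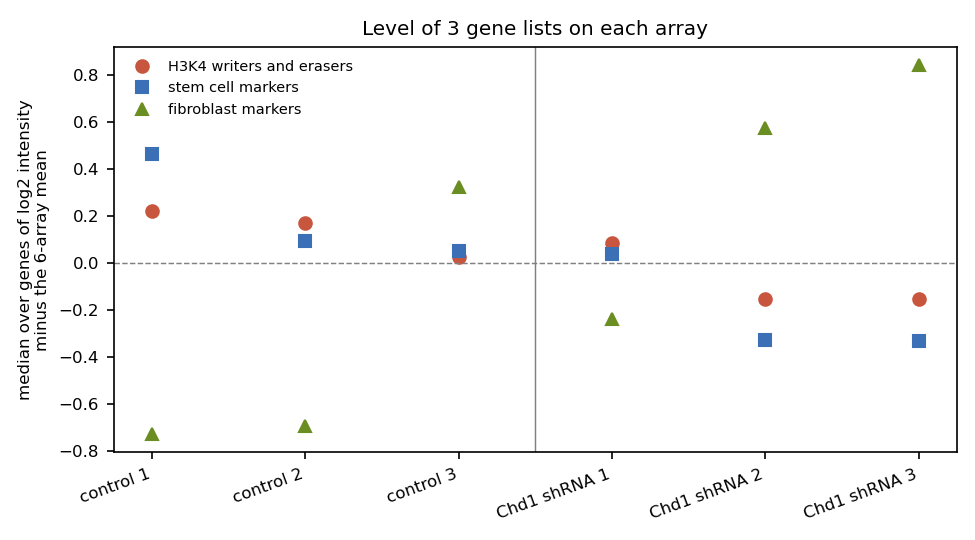
Level of 3 gene lists (y axis, median over genes of log2 intensity minus the 6-array mean) on each of the 6 arrays (x axis). The H3K4 genes span 0.22 to -0.15, a narrower range than the fibroblast markers, which span -0.73 to 0.84.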

How the data were processed

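The deposited unnormalized table gives, for 45281 probes, a linear intensity summarised over beads in GenomeStudio per the submitters' processing notes (no version given), and a detection p-value per array per the file headers. A second deposited table holds intensities processed by the authors by a method that the sources used here do not give. Their columns share quartiles, as after quantile normalization, and that table served as an alternative. Its log2 fold changes were nearly those of quantile normalization without background correction, -0.53 and -0.58 on the Dpy30 probes in both. These alternatives are thus not separate checks. Samples were grouped by the transfection label, and replicates numbered in accession order.

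Intensities were background-corrected by normal-exponential convolution (negative-control mean and variance inferred from detection p, offset of 16), quantile-normalized and log2-transformed with neqc in limma 3.58.1 (R 4.3.3). Probes detected (p under 0.05) on 3 or more arrays were fitted with lmFit and eBayes, adjusted by Benjamini-Hochberg over 16018 probes. The fit was checked on simulated data. The platform annotation lists 1 gene for 34885 probes and several for 18, which were not named. Updating symbols through RefSeq gene identifiers changed 0.

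All tested probes of the 10 genes are named, and Chd1. From the 4 pathway lists, genes past an unadjusted p of 0.05 (at most 4) are named, otherwise the 2 with the largest absolute difference, and from marker lists the 2 brightest. Other marker genes are named only where detection limits what they show. The members and lists were chosen with earlier results of these data known. Alternatives were another offset, no background correction, 2 other scalings, the authors' table, 2 other filters, another variance model, array weights, 1 probe a gene, and leaving out each array. Precision is limited by having 3 arrays per group.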

Additional observations from a re-analysis of the deposited data

How the results depend on the processing

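Over 16 alternatives no probe of the 10 genes passed an adjusted p of 0.05. Among all probes, where 0 passed at first, the number was 1 with array weights, 1 with median scaling and 31 when the variance model had an intensity trend and was robust. The unadjusted count over all probes went from 1664 to 3106 with array weights. The 3 probes of the 10 genes past an unadjusted p of 0.05 became 0 with median scaling and 1 with 1 probe a gene, and 1 to 6 with an array left out. Of all probes, 10.4% passed it at first, 14.0% with median scaling and 10.9% with 1 probe a gene. With an array left out the share of all probes was 5.61% to 16.7%. The median of the 10 genes was 0.086 with median scaling, where all genes moved to 0.22, and -0.20 to -0.065 with an array left out. Of unadjusted calls, 45.3% were higher in Chd1 shRNA arrays, and 91.5% were with median scaling.

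Of 321 values of single probes under alternatives, 297 kept their direction and 24 turned, all of them from reported values between -0.11 and 0.07. Alternatives that changed only the filter, probe choice or variance model kept every log2 fold change, so no direction could turn in them. The authors' table and no background correction gave nearly the same values. Median scaling turned Ash2l ILMN_3154222 (0.12), Kmt2a ILMN_1218169 (0.25), Kdm5a ILMN_1258652 (0.054), Rbbp5 ILMN_2790735 (0.24), Setd1a (0.22) and Chd1 ILMN_2958382 (0.020). Scaling to the 75th percentile turned Kdm5a ILMN_1260532 (-0.072), Kmt2a ILMN_1218169 (0.042), Rbbp5 ILMN_2790735 (0.030) and Setd1a (0.012), and array weights turned Kdm5a ILMN_1260532 (-0.00027). With an array left out, the ranges were -0.20 to 0.028 for Ash2l ILMN_3154222, -0.18 to 0.11 for Kmt2a ILMN_1218169, -0.23 to 0.15 for Kdm5a ILMN_1258652, -0.17 to 0.35 for Kdm5a ILMN_1260532, -0.21 to 0.10 for Rbbp5 ILMN_2790735, -0.18 to 0.081 for Setd1a and -0.27 to 0.10 for Chd1 ILMN_2958382. The cause was not tested. Probes near background, as all of Kdm5a, limit what could be detected. No paired analysis was possible because the labels give no replicate numbers that pair the samples.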
